A study of Mus musculus with 54 samples.

Results

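Acceptor microglia that had been dye-labelled, mixed with donor cells and sorted back at 0 min of co-culture were compared with untreated microglia. The comparison used the 3 libraries named as acceptors at 0 min and the 6 libraries of untreated controls, 9 of the 54 libraries of the series. All cells were primary microglia of neonatal C57BL/6 mice. Cells of 2 brains shared a flask for 7 to 10 days in serum with supernatant of L929 cells, and the microglia were then shaken off the astrocytes beneath them. Acceptors carried the dye CellTracer Violet, applied for 15 min. Alpha-synuclein, the protein that aggregates in Parkinson's disease, was given to the donors only, as an Atto-488-labelled form at 1 µM for 14 h. Both populations were separated again by flow cytometry. Donors sorted at 0 min (3 libraries) and alpha-synuclein-treated cells that were never mixed (4 libraries) served as the parallel comparison on the donor side, and acceptors at 15 min (4 libraries) as the next time point.

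Each library has a replicate number in its label. Untreated numbers 2 and 4 had a pair of libraries each, which were summed, so that 4 untreated replicates stood against 3 acceptor replicates. Same-numbered acceptors and untreated cells deviated together from their group means (r of 0.433, 0.532 and 0.572 across genes), and the numbers were kept as pairs. Number 4 has untreated cells but no acceptor library at 0 min, and its libraries carry a separate run of facility numbers. Its untreated libraries held 22.3% and 19.9% of counts on the ribosomal RNA row, against 2.75% to 8.50% in the other 7 libraries. Results are therefore given with number 4 and, in a fit that leaves out its libraries in all groups of the series, without it. Total counts of the 9 libraries ran from 8702881 to 14358778. The labels give a passage per replicate number but no animal, so p-values cannot be read as spread between animals. With numbers kept as pairs, they measure the scatter left after differences between numbers are fitted, estimated over all groups of the series. Samples of 1 number in different groups were otherwise treated as independent. Dye, mixing, time with donors and sorting cannot be told apart in this comparison, and the labels do not say whether untreated cells were sorted.

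Microglia are the resident macrophages of the brain. Their expression changes readily with handling: enzymatic isolation and sorting are known to induce immediate early genes and chemokines, and cultured microglia lose part of their resting programme. Type I interferons signal through the receptor subunits Ifnar1 and Ifnar2 to transcription factors such as Stat2 and Irf9, which bind the interferon-stimulated response element upstream of antiviral genes. Levels below are CPM, counts scaled to a common library size after edgeR's TMM scaling. A gene was called when the Benjamini-Hochberg adjusted p of edgeR's quasi-likelihood test, over all genes tested, was under 0.05.

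Of 13169 genes tested, 131 were called (0.995%): 51 were higher in acceptors at 0 min (0.387%) and 80 lower (0.607%). The changes were small among the higher genes, with a median log2 fold change of 0.64 and 9 genes over 2-fold. The lower genes had a median of -0.77 and 31 were over 2-fold. All 3 pairs had the same direction for 126 of the 131, which a paired test favours, so this is no separate support. Among all genes, 17.1% were lower and 14.1% higher in all 3 pairs. The acceptors and the untreated replicates did not overlap in CPM for 33 of the 51 higher genes and 25 of the 80 lower genes. Over all genes, 3.21% were higher and 2.95% lower without overlap. The called genes were chosen on the same values, so this is no separate support either. The call rested on the pairing: without the replicate block no gene was called by edgeR, with 749 genes at an unadjusted p under 0.05 against 1849 with it, and the fitted fold changes of all 131 kept their sign. It also rested on single numbers. Without number 1, 2 genes were called (0.015%), without number 2, 34 (0.255%), without number 3, none (1238 at an unadjusted p under 0.05), and without number 4, 376 (2.87%), of which 102 were higher (0.78%) and 274 lower (2.09%). These 376 included 108 of the 131. DESeq2 on the same design called 74 higher and 180 lower (1.93% in both directions), 127 of the 131 among them. A fit of the compared groups alone, which also left out number 4, called 90 (0.792%), 4 higher and 86 lower.

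**Figure D1:**
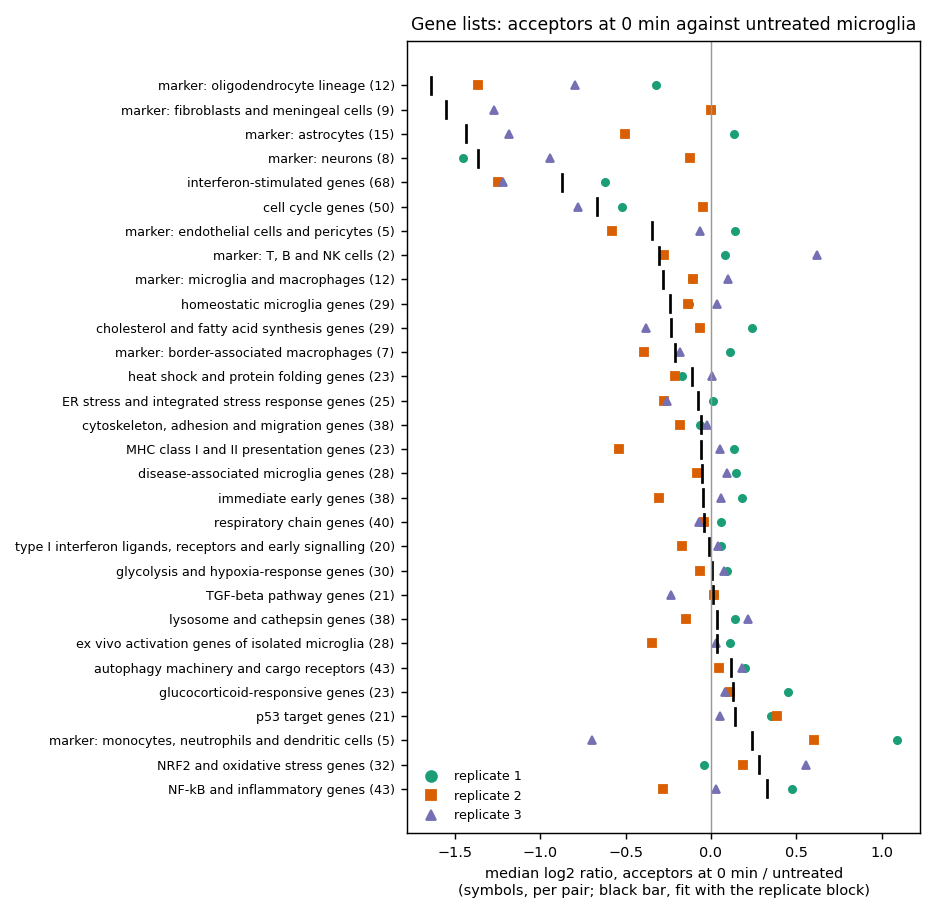
Median log2 ratio of acceptors at 0 min to untreated microglia for each gene list (rows, number of genes tested in brackets); symbols are the medians within each of the 3 pairs and the black bar is the median of the fit with the replicate block. Interferon-stimulated genes are left of 0 in every pair, with medians of -0.62, -1.25 and -1.22. So are cell cycle genes, oligodendrocyte and neuronal markers and, by little, cytoskeleton genes. The black bars of astrocyte, oligodendrocyte, neuronal and fibroblast markers are further left than that of the interferon-stimulated genes, while most other lists lie around 0.

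Most interferon-stimulated genes had lower values in acceptors at 0 min than in untreated microglia, and how many passed the test depended on number 4 and on the other numbers. Without number 3 none passed, since no gene at all was called, and without number 1 only 2 of all genes were called. Of the 68 interferon-stimulated genes tested, 65 had a fitted fold change below 0, and the list's median was -0.87 against -0.03 over all genes. In the fit with number 4, 2 of the 68 were called, both lower (Slfn5 and Eif2ak2), and 39 were lower at an unadjusted p under 0.05. DESeq2 called 10 of the 68, all lower, against a background of 1.37% called lower. Without number 4, 40 of the 68 were called lower and none higher, against a background of 2.09% called lower, and the median was -1.08. In all 3 pairs 54 of the 68 were lower and none was higher, where 17.1% of all genes were lower in all 3 pairs and 14.1% higher. Members of a list are not replicates, and lists were chosen with earlier results of these data known. Counts of members beside the share over all genes are therefore description and no separate support, here and for the lists below. The median log2 CPM of the list was 5.98, 8.48, 6.43 and 5.24 in untreated numbers 1 to 4. In acceptors it was 5.15, 6.98 and 5.13. Untreated number 2 was the highest of all and its acceptors stood above those of the other numbers, so the groups overlapped while the acceptor was the lower one in every pair. Untreated number 4, which has no acceptor partner, lay close to the acceptors of numbers 1 and 3. The fit without number 4 left out its libraries in all groups, not only the untreated ones.

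The upstream sequences of Isg15 and Ifit3 are shown because they hold the interferon-stimulated response element that was searched for in all promoters. Isg15 encodes a ubiquitin-like protein conjugated to other proteins, and Ifit3 a protein of the complex that binds viral RNA. Both stretches are the 250 bases before the gene's start in RefSeq (GRCm38.p6), written 5′ to 3′ on the gene's strand, with matches to GAAANNGAAA on either strand in capitals. In Isg15, 3 overlapping matches merge into 1 run.
Isg15, chr4:156200819-156201068, minus strand: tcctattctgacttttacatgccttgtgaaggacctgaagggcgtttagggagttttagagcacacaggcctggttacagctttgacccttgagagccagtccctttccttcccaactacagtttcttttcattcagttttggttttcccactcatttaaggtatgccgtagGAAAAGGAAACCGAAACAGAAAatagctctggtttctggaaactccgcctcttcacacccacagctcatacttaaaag
Ifit3, chr19:34583279-34583528, plus strand: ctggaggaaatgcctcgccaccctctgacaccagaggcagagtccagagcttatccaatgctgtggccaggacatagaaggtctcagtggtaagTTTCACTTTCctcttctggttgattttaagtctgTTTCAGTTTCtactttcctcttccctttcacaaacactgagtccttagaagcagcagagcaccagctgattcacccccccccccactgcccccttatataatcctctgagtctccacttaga
RefSeq promoters, from 250 bases before to 50 after the start, were found for 55 of the 68 interferon-stimulated genes, 63 promoters in all. The motif was in 32 of them (50.8%), against 3.44% of all 32851 promoters in the table. Among the genes called lower without number 4, 21 of 39 promoters held it (53.8%). Rsad2 and Cxcl10 had 1 match each, and Herc6, Cmpk2 and Irf7 had none in this window. A match describes the letters and is no evidence of binding.

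Isg15 (chr4:156199424-156200818) was at 125, 1246, 212 and 69.97 CPM in untreated numbers 1 to 4. In acceptors 1 to 3 it was at 91.7, 379 and 78.5 CPM. The fall was within each pair and the groups overlapped, since untreated number 4 was below every acceptor. Without number 4 its log2 fold change was -1.34 ± 0.33 (SE, adjusted p = 0.0189, edgeR), and with number 4 it was -0.97 ± 0.61 (adjusted p = 0.505). Ifit3 (chr19:34583531-34588731) was at 287, 2490, 332 and 81.5 CPM in untreated cells and 110, 510 and 131 CPM in acceptors. Its log2 fold change without number 4 was -1.89 ± 0.41 (SE, adjusted p = 0.00864, edgeR). Rsad2, the antiviral enzyme viperin, was at 227, 2709, 332 and 101 CPM in untreated cells and 132, 645 and 71.6 CPM in acceptors. Cxcl10, a chemokine that attracts T cells, was at 42.1, 409, 107 and 12.9 CPM and at 31.0, 98.6 and 34.3 CPM in the same order. Both passed the test without number 4 (adjusted p = 0.0113 and 0.00877, edgeR) and not with it (0.195 and 0.0911).

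Slfn5, a member of the Schlafen family (chr11:82951349-82964840), was at 164, 493, 186 and 112 CPM in untreated microglia. It was at 64.1, 205 and 87.5 CPM in acceptors. Each pair fell by a similar amount, -1.35, -1.26 and -1.09 on the log2 scale, and the fitted change was -1.18 ± 0.29 (SE, adjusted p = 0.0371, edgeR). An antisense gene, Slfn5os, overlaps it. Eif2ak2, the kinase PKR that is activated by double-stranded RNA, was at 33.9, 81.3, 42.9 and 34.3 CPM in untreated cells and 20.8, 39.6 and 19.9 CPM in acceptors. Only acceptor number 2 reached into the untreated range. Its log2 fold change was -0.85 ± 0.21 (SE, adjusted p = 0.0371, edgeR).

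Other called genes that interferon is known to induce were outside the list and were singled out after their values were seen. Daxx, a partner of the nuclear body protein Pml, was at 90.5, 363, 101 and 59.5 CPM in untreated cells and fell to 51.3, 136 and 48.2 CPM in acceptors. Pml itself was at 53.5, 163, 57.3 and 31.4 CPM and fell to 29.8, 53.8 and 33.6 CPM. The very large inducible GTPase row Gvin1 and the row Gm4070 had nearly the same values in every library (96.3 and 97.9 CPM in untreated number 1), so they cannot be counted as separate genes.

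**Figure D2:**
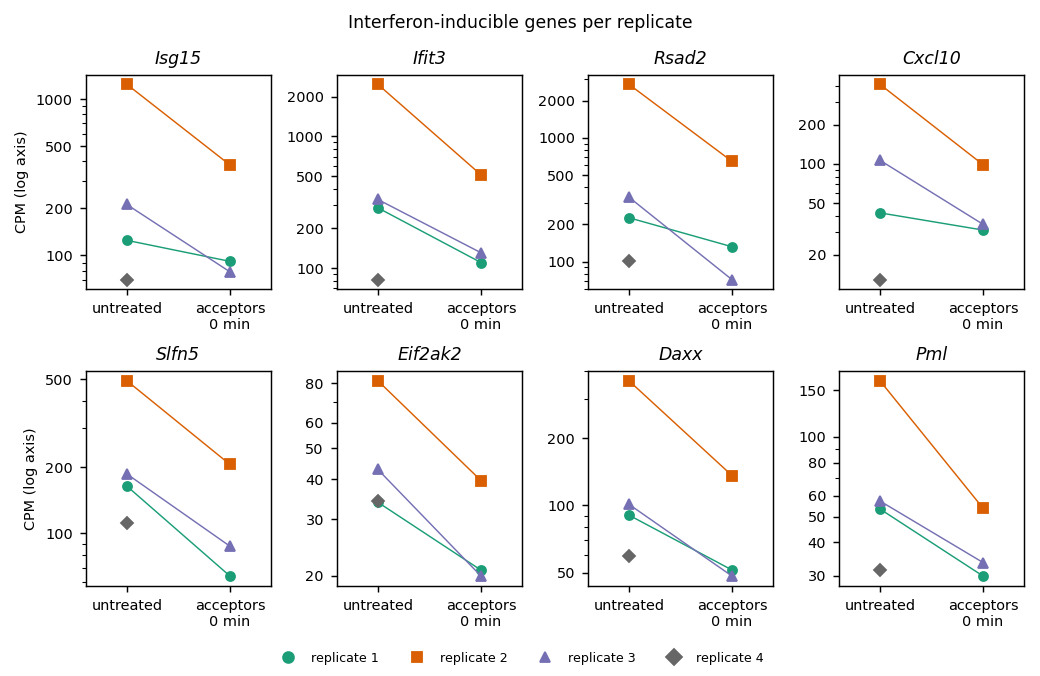
CPM (log axis) of 8 interferon-inducible genes in each untreated replicate and each acceptor replicate at 0 min; lines join the same replicate number, and replicate 4 has no acceptor library at 0 min. Every line slopes down, least for Cxcl10 in replicate 1 (42.1 to 31.0 CPM), and replicate 2 is highest in untreated cells for every gene shown.

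The genes called lower without number 4 included sensors, transcription factors, regulators and chemokines. The sensors Ifih1 and Ddx58 had log2 fold changes of -1.19 and -0.97. The transcription factor Stat2 had -0.94. Usp18, which removes Isg15 and restrains the receptor, had -1.75, and Herc6, a ligase for Isg15, had -1.45. The chemokine Ccl12 had the lowest value of the 40, -2.36, and Psmb9, an immunoproteasome subunit, had the value closest to 0, -0.67. The 20 tested ligands, receptors and early signalling genes had a median of -0.01 with number 4, and none was called by edgeR (3 higher and 4 lower at an unadjusted p under 0.05) or by DESeq2. Ifnb1, which encodes interferon beta, was at 0, 1.18, 0.51 and 0 CPM in untreated cells and 0, 0.56 and 0 CPM in acceptors. Ifnar1 was at 96.9, 43.4, 79.7 and 68.1 CPM in untreated cells and 97.4, 72.1 and 87.1 CPM in acceptors, and its change did not pass the test (adjusted p = 0.456, edgeR). Without number 4, Tlr3 alone was called in that list (-1.08, adjusted p = 0.011).

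On the donor side the same list had a median of -0.33 between donors at 0 min and unmixed alpha-synuclein-treated cells. Its median log2 CPM was 6.44, 7.11 and 6.61 in donors and 6.48, 7.07, 6.67 and 7.04 in the treated cells. Donors and treated cells of the same number nearly coincided, and treated number 4, which has no donor library at 0 min, was higher than 2 of the 3 donors. The median difference between the acceptor and the donor changes was -0.54. No gene passed the test of that difference, which called none of all 13169 (0%), and 8 of the 68 were at an unadjusted p under 0.05.

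Cell cycle genes had mostly lower values as well. Of 50 tested, 6 were called, all lower (background 0.607%), 46 had a fitted fold change below 0, and the median was -0.67. The pairs differed: their medians were -0.52, -0.05 and -0.78, so that number 2 showed almost no change over the list. Without number 4 the median was -0.45, and 7 were called lower (background 2.09%). Mcm3, Mcm6 and Mcm7 are subunits of the helicase that opens replication origins, and Cdca7 helps the maintenance of DNA methylation. Wee1 is a kinase that holds cells before mitosis, and Ccnd2 is a D-type cyclin.

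Mcm6 (chr1:128331590-128359664) was at 119, 82.1, 92.0 and 82.6 CPM in untreated microglia and 87.7, 59.7 and 63.4 CPM in acceptors. The pairs gave -0.44, -0.46 and -0.54, the most even fall of the 6, and the fitted log2 fold change was -0.53 ± 0.10 (SE, adjusted p = 0.00761, edgeR). Mcm3 was at 91.8, 37.2, 66.1 and 76.2 CPM and at 46.2, 34.7 and 36.9 CPM, with almost no fall in number 2 (-0.10). Mcm7 was at 63.1, 22.1, 45.1 and 67.7 CPM and at 44.9, 21.2 and 27.4 CPM. It holds 3 microRNA genes on its own strand and overlaps Ap4m1 and Cops6 on the other. Cdca7 was at 9.18, 2.31, 4.97 and 5.54 CPM in untreated cells and 2.05, 0.48 and 0.89 CPM in acceptors, without overlap. Its pairs gave -2.09, -1.95 and -2.30, smaller falls than the fitted change of -2.48 ± 0.55 (SE, adjusted p = 0.0214, edgeR). Wee1 was at 16.4, 6.45, 12.5 and 13.2 CPM in untreated cells and 7.33, 4.43 and 5.66 CPM in acceptors. Ccnd2 was at 2.42 and 6.50 CPM in untreated numbers 1 and 2 but 38.1 and 74.1 CPM in numbers 3 and 4, and acceptors were at 1.51, 3.22 and 14.8 CPM.

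The stretch before the Mcm6 start is shown because E2F factors, which drive replication genes, bind such sites, and it holds 3 matches, a pair of which overlap. The motifs searched on both strands were TTTCCCGC, TTTCGCGC, TTTGGCGC and TTTGCCGC, and matches are in capitals.
Mcm6, chr1:128359706-128359955, minus strand: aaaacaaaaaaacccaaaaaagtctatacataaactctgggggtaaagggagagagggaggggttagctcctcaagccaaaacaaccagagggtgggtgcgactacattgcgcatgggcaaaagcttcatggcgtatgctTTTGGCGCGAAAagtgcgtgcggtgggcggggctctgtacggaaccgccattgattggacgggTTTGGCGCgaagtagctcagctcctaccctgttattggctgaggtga
RefSeq promoters were found for 39 of the 50 cell cycle genes (42 promoters). Of these, 10 held a match (23.8%), against 2.26% of all promoters. Mcm3, Mcm7 and Cdca7 held 2, 2 and 1. These windows were searched for letters only.

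On the donor side the median of the cell cycle list was -0.01, and 13 of its 50 genes had an unadjusted p under 0.05 for the difference between acceptors and donors, none of them called. Mcm6 was at 72.2, 45.8 and 58.2 CPM in donors at 0 min, below the acceptor of the same number in each case. In unmixed alpha-synuclein-treated cells it was at 80.02, 48.8, 62.0 and 35.1 CPM.

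Genes known from neural tissue were among the 12 largest falls, and Elavl3 is on the list of neuronal markers. It encodes a neuronal RNA-binding protein, Map1b encodes a microtubule protein of growing neurites, Syt4 a synaptotagmin, Ptprd a synaptic receptor phosphatase, Sema3d a secreted guidance cue and Enpp2 the enzyme autotaxin. Syt4 had 1 count over all 3 acceptor libraries against 305 in the untreated ones. It was at 3.03, 1.61, 16.2 and 1.85 CPM in untreated cells, and 189 of the 305 counts were from number 3. Sema3d had no count in acceptors against 4, 9, 16 and 59 in untreated numbers 1 to 4, so that most of its counts were from the number without an acceptor.

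Elavl3 was at 2.52, 2.05, 22.6 and 14.7 CPM in untreated cells and 0.54, 0.16 and 6.69 CPM in acceptors. Map1b was at 3.03, 3.45, 17.4 and 9.54 CPM and at 0.97, 0.48 and 6.28 CPM. In both, number 3 was highest in either group, so the groups overlapped while the acceptor was the lower one in each pair. Ptprd was at 1.72, 1.92, 15.3 and 13.4 CPM and at 0.22, 0.32 and 5.39 CPM. These genes were at low levels in every library, and the antisense genes around Ptprd cannot be separated from it by these counts with certainty, since how strand was used in counting is not given in the sources used here.

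**Figure D3:**
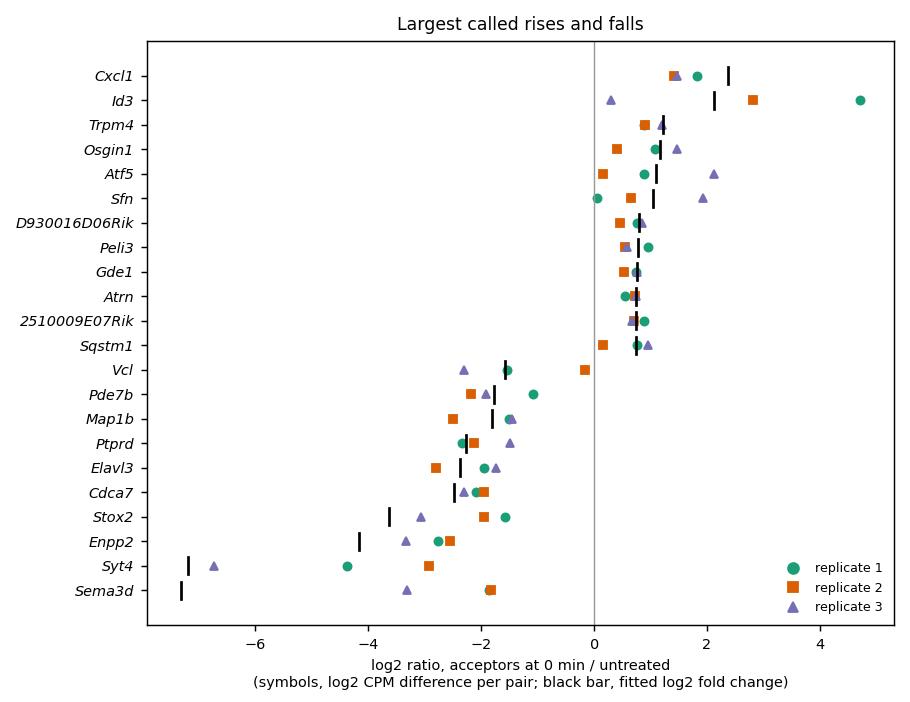
Log2 ratio of acceptors at 0 min to untreated microglia for the 12 largest called rises and 10 of the 12 largest called falls; symbols are the differences in log2 CPM within each pair, and the black bar is the fitted log2 fold change. The 22 were picked from called genes with all 3 pairs on the same side of 0. The fitted values of Syt4 and Sema3d, with 1 and 0 acceptor counts, lie beyond their pairs.

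Summed markers of oligodendrocytes and neurons were lower in the acceptor of every pair, and those of astrocytes and fibroblasts in number 3 only. Markers of the oligodendrocyte lineage summed to 281, 289, 725 and 282 CPM in untreated numbers 1 to 4 and 164, 166 and 320 CPM in acceptors. All 12 tested had a fitted fold change below 0. The fitted median of -1.64 was beyond the pair medians of -0.32, -1.36 and -0.80, and it was -1.015 without number 4. With number 4, 1 was called lower (background 0.607%) and without it 3 (2.09%), among them Mobp and Cnp. None of the 13 was at 0 in all acceptors. Mbp, myelin basic protein, was at 99.0, 78.02, 186 and 64.5 CPM in untreated cells and 87.3, 71.9 and 111 CPM in acceptors, and its change did not pass the test (adjusted p = 0.322, edgeR). Neuronal markers summed to 7.37, 6.63, 54.9 and 51.3 CPM in untreated cells and 1.94, 3.06 and 27.3 CPM in acceptors, with Stmn2 and Gad1 at 0 in all 3 acceptors and 1 of 8 tested called (Elavl3, lower). Astrocyte markers summed to 293, 196, 314 and 672 CPM in untreated cells and 322, 237 and 221 CPM in acceptors. None of the 15 tested was called, their pair medians were 0.13, -0.50 and -1.19, and the fitted median of -1.43 was beyond all 3 pairs. Mfge8 alone was at 97.2 to 287 CPM in acceptors, a large part of their astrocyte sums, and at 72.9 to 316 CPM in untreated cells. In number 2 the astrocyte sum was higher in the acceptor although the pair median was below 0. Gfap, the defining astrocyte filament, was at 15.1 CPM in untreated number 4 and at most 1.37 CPM in the other untreated and acceptor replicates. Fibroblast markers summed to 18.3, 3.88, 61.5 and 66.4 CPM in untreated cells and 27.6, 4.99 and 40.5 CPM in acceptors, with Lum and Thy1 at 0 in acceptors and none called of 9. Fewer cells of a type and less RNA per cell cannot be told apart in these bulk samples, and the part of such cells in the other gene groups was not tested.

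**Figure D4:**
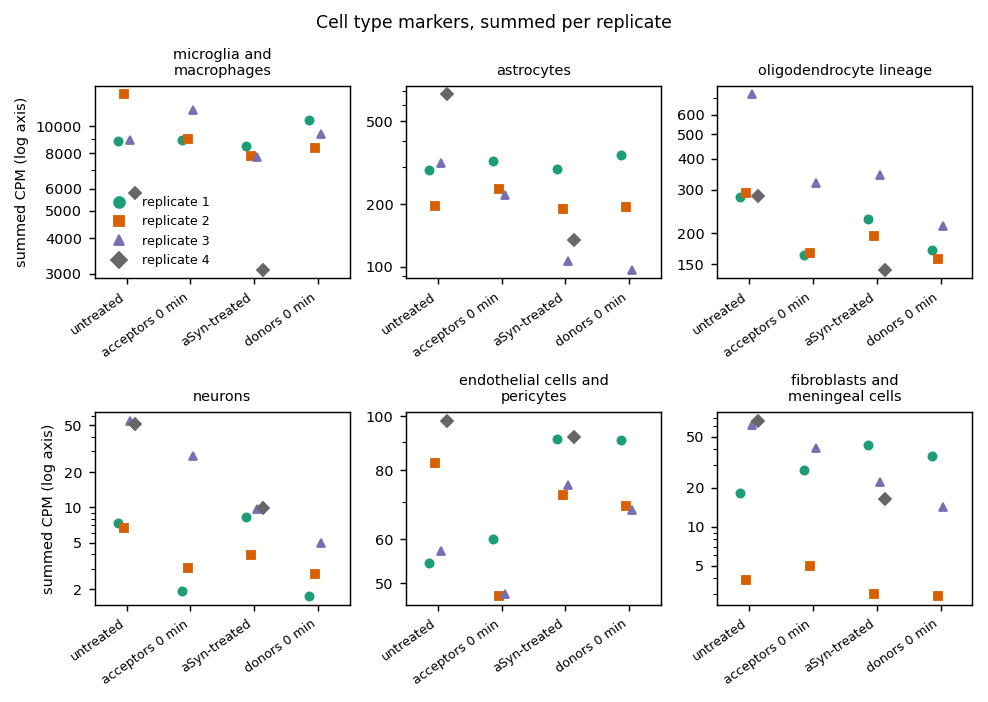
Summed CPM (log axis) of the markers of 6 cell types in each replicate of untreated microglia, acceptors at 0 min, unmixed alpha-synuclein-treated (aSyn) cells and donors at 0 min. Oligodendrocyte markers are lower in the acceptors and in the donors of every replicate number than in the unmixed partner of that number, from 281 to 164 CPM in untreated and acceptor replicate 1.

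Elavl3 had -2.02 in donors and -2.37 in acceptors. Oligodendrocyte, neuronal and astrocyte markers had fitted donor medians of -0.99, -1.26 and -0.70. In sum, the oligodendrocyte and neuronal markers were lower in donors than in the treated cells of the same number in all 3 numbers. Astrocyte markers summed to 346, 194 and 97.1 CPM in donors against 294, 190 and 107 CPM in treated numbers 1 to 3, lower in number 3 only. Mfge8 is part of these sums as well.

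Microglia and macrophage markers were present in every library. All 12 of them together summed to 8863, 12959, 8902 and 5781 CPM in untreated cells and 8915, 8978 and 11451 CPM in acceptors, and none was at 0. In the fit 8 of the 12 were below 0, with a median of -0.28 (-0.03 over all genes), and pair medians of -0.11, -0.10 and 0.10. Of these, P2ry12, the purinergic receptor of resting microglia, was called lower. It was at 7.47, 12.3, 8.23 and 4.22 CPM in untreated cells and 4.85, 4.67 and 4.16 CPM in acceptors, so that untreated number 4 again lay with the acceptors. Tgfbr2, the receptor through which TGF-beta maintains that state, was at 172, 130, 144 and 101 CPM and at 87.9, 77.4 and 118 CPM (log2 fold change -0.62 ± 0.13 SE, adjusted p = 0.0205, edgeR). These were the 2 genes called among 29 homeostatic genes, both lower (background 0.607%), and 21 of the 29 were fitted below 0, with a median of -0.24 and pair medians of -0.13, -0.14 and 0.03. Without number 4 the median was -0.006 for the homeostatic genes and 0.026 for the 12 microglia and macrophage markers, against -0.018 over all genes. Without the replicate block these medians were 0.004 and 0.041, so neither list was shifted as a whole in those fits. Tmem119 was at 2.32, 1.00, 4.63 and 2.98 CPM in untreated cells and 5.17, 2.66 and 4.64 CPM in acceptors, with no call.

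The genes with the largest rises or the smallest p-values did not belong to 1 of the lists. Trpm4, a calcium-activated cation channel (chr7:45302632-45333780), was at 3.83, 3.40, 4.03 and 3.32 CPM in untreated cells and 7.22, 6.44 and 9.48 CPM in acceptors. The groups were well apart, and the log2 fold change was 1.22 ± 0.24 (SE, adjusted p = 0.0102, edgeR). Oga, which removes O-linked N-acetylglucosamine from proteins, had the smallest p of all genes. It was at 78.3, 84.0, 59.4 and 113 CPM in untreated cells and 133, 103 and 115 CPM in acceptors, a log2 fold change of 0.68 ± 0.11 (SE, adjusted p = 0.00211, edgeR). Untreated number 4 was the replicate that overlapped. Tmbim1, a membrane protein of endosomes and lysosomes, was at 50.6, 40.7, 52.2 and 43.1 CPM and at 84.7, 60.9 and 78.7 CPM, without overlap. Mat2a, which makes the methyl donor S-adenosylmethionine, was among the 6 smallest p-values in the other direction, at 231.2, 216.4, 254.5 and 351.4 CPM in untreated cells and 138, 134 and 133 CPM in acceptors (log2 fold change -0.72 ± 0.12 SE, adjusted p = 0.00335, edgeR).

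Id3, an inhibitor of basic helix-loop-helix factors, had the widest spread among the rises. It was at 1.82, 3.58, 20.1 and 15.4 CPM in untreated cells and 51.6, 26.1 and 24.9 CPM in acceptors. The pairs gave 4.72, 2.82 and 0.30, so the fitted 2.12 ± 0.48 (SE, adjusted p = 0.025, edgeR) came mostly from numbers 1 and 2. Atf5, a stress-related transcription factor, was at 14.6, 29.7, 17.1 and 32.0 CPM and at 27.3, 33.1 and 75.1 CPM, and acceptor number 3 stood apart. Csf2rb and Csf2rb2, the common beta chain of the GM-CSF receptor and its close paralog, both rose, with log2 fold changes of 0.72 and 0.70, and reads may be split between them.

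Among 32 genes of the NRF2 response to oxidants, 2 were called higher (background 0.387%), 25 had a fitted fold change above 0 and the median was 0.28. Osgin1, an oxidative stress-induced growth inhibitor (chr8:119434124-119446256), was at 9.69, 13.1, 7.63 and 10.4 CPM in untreated cells and 20.6, 17.4 and 21.3 CPM in acceptors. The groups did not overlap, and the log2 fold change was 1.16 ± 0.26 (SE, adjusted p = 0.0209, edgeR). Sqstm1, the autophagy receptor p62 (chr11:50199366-50210827), was at 507, 698, 463 and 525 CPM in untreated cells and 860, 781 and 898 CPM in acceptors. Its rise was smallest in number 2 (0.16 against 0.76 and 0.95), the fitted value was 0.73 ± 0.17 (SE, adjusted p = 0.0312, edgeR), and it missed the threshold without number 4 (adjusted p = 0.0524). Both genes were higher still in cells exposed to alpha-synuclein. Osgin1 was at 31.1, 59.3, 24.4 and 55.3 CPM in unmixed treated cells and 29.7, 60.6 and 32.8 CPM in donors at 0 min. Sqstm1 was at 1334 to 2433 CPM in the treated cells and 1482 to 2170 CPM in the donors. The list's pair medians were -0.04, 0.19 and 0.56, and the classical target Nqo1 was at 0.89 to 2.37 CPM in acceptors and 0.96 to 3.09 CPM in untreated cells.

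Of 43 autophagy genes, a list drawn up after the values were seen, 4 were called higher (background 0.387%) and none lower, with a median of 0.12. Beside Sqstm1 these were Gabarapl1 and Atg12, which act in the conjugation of the autophagosome membrane, and Atg13 of the initiating kinase complex. Atg12 was at 64.0, 84.7, 55.4 and 71.8 CPM in untreated cells and 99.2, 94.2 and 103 CPM in acceptors, without overlap (log2 fold change 0.58 ± 0.11 SE, adjusted p = 0.00761, edgeR). Gabarapl1 was at 134, 88.8, 122 and 168 CPM and at 207, 143 and 201 CPM, and its pairs were even (0.63, 0.68 and 0.72).

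The genes most often linked to cell isolation did not pass the test. None of 38 immediate early genes was called, and their median was -0.05. None of 28 genes of the ex vivo activation programme and none of 23 heat shock genes was called with number 4. In these lists 1 immediate early gene was higher and 1 lower at an unadjusted p under 0.05, 2 and 1 of the ex vivo genes, and 0 and 2 of the heat shock genes. DESeq2 called none in these lists either. Fos was at 194, 201, 149 and 59.5 CPM in untreated cells and 263.7, 224 and 159 CPM in acceptors (adjusted p = 0.605, edgeR). Jun was at 119, 105, 91.9 and 142 CPM and at 81.9, 67.9 and 63.4 CPM (adjusted p = 0.222), with no overlap. Without number 4, 3 heat shock genes were called lower (background 2.09%): Hspa5, Dnaja1 and Hspa8, with log2 fold changes of -0.57, -0.51 and -0.39.

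Of 43 NF-kB and inflammatory genes tested, 3 were called higher (background 0.387%) and none lower, but only Cxcl1 rose in all 3 pairs. Cxcl1, a neutrophil-attracting chemokine, was at 1.51, 1.35, 3.94 and 0.87 CPM in untreated cells and 5.71, 3.87 and 11.1 CPM in acceptors. Acceptor number 2 was just below untreated number 3, and the log2 fold change was 2.37 ± 0.61 (SE, adjusted p = 0.0454, edgeR). Il12b and Lcn2 had a handful of counts: Il12b had 1, 8 and 0 counts in acceptors and 0, 0, 0 and 7 in untreated cells, and Lcn2 had 7, 0 and 14 against 0, 2, 7 and 32. Their values give no separation between the groups, whatever the fit calls. Without number 4, Cxcl1 was called higher (background 0.78%), and Ccl7, Ccl2, Il18 and Marcksl1 lower (background 2.09%), with -2.45, -1.80, -1.19 and -0.75.

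Actin and adhesion genes gave 2 calls of 38, both lower (background 0.607%). Actg1, cytoplasmic gamma-actin, was at 2892, 2578, 2993 and 1878 CPM in untreated cells and 1975, 1870 and 2003 CPM in acceptors, with even pairs (-0.55, -0.46 and -0.58). Vcl, the adhesion protein vinculin, was at 42.0, 16.3, 60.3 and 43.7 CPM and at 14.2, 14.6 and 12.1 CPM, with little change in number 2 (-0.16). Lists for disease-associated microglia (28 genes), lysosomes (38), the respiratory chain (40), glycolysis (30), cholesterol synthesis (29), p53 targets (21) and antigen presentation (23) gave no call with number 4, and their medians ran from -0.24 to 0.14. Without number 4, Nlrc5, Psmb9, Cycs and Pfkfb3 were called lower in these lists (background 2.09%) and Bnip3l higher (0.78%). The stress response list gave Chac1, a glutathione-degrading enzyme, as lower (log2 fold change -1.28 ± 0.33 SE, adjusted p = 0.0467, edgeR).

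Donors at 0 min against unmixed alpha-synuclein-treated cells gave no called gene in the same fit (0% of 13169, 725 at an unadjusted p under 0.05). DESeq2 called 3 (0.0228%). A fit of those groups alone, which left out number 4, called 679 (5.94%), so the count depended on which samples entered the fit. Of the 51 genes higher in acceptors, 33 had a fitted value above 0 in donors, and of the 80 lower, 55 were below 0, where 47.0% and 52.96% of all genes lay on those sides. Their medians in donors were 0.04 and -0.09. The difference between both changes passed the test for no gene (0%, 960 at an unadjusted p under 0.05, 3 or 0.0228% called by DESeq2), with a smallest adjusted p of 0.107, and 103 of the 131 genes, which were chosen by one side of that difference, had an unadjusted p under 0.05. Among the genes named above, Trpm4 had the smallest of these, with a difference of 1.70 ± 0.34 (SE, adjusted p = 0.107, edgeR), and Oga (0.73 ± 0.15), Atg12 (0.73 ± 0.16) and Il12b, a gene with a handful of counts, had the same adjusted p. Trpm4 was at 7.81, 6.396, 6.20 and 11.0 CPM in treated cells and 5.43, 4.78 and 4.74 CPM in donors, the opposite direction from the acceptor side.

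Between 0 and 15 min of co-culture no gene was called in acceptors (0%, 439 at an unadjusted p under 0.05, none by DESeq2). This comparison shares the 0 min libraries with the one above, so the values are given side by side. Mat2a was at 140, 154, 160 and 298 CPM at 15 min and 175, 165 and 266.8 CPM at 300 min. Its number 4 was high at each time, as it was in untreated cells. Osgin1 was at 17.6, 19.99, 23.9 and 40.9 CPM at 15 min and 11.3, 12.9 and 29.2 CPM at 300 min, where number 2 was close to its untreated level of 13.1 CPM. Slfn5 was at 78.8, 202, 115 and 47.0 CPM at 15 min and 209, 282 and 177 CPM at 300 min (numbers 1, 2 and 4). Slfn5 was above its untreated level at 300 min in numbers 1 and 4 and below it in number 2.

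**Figure D5:**
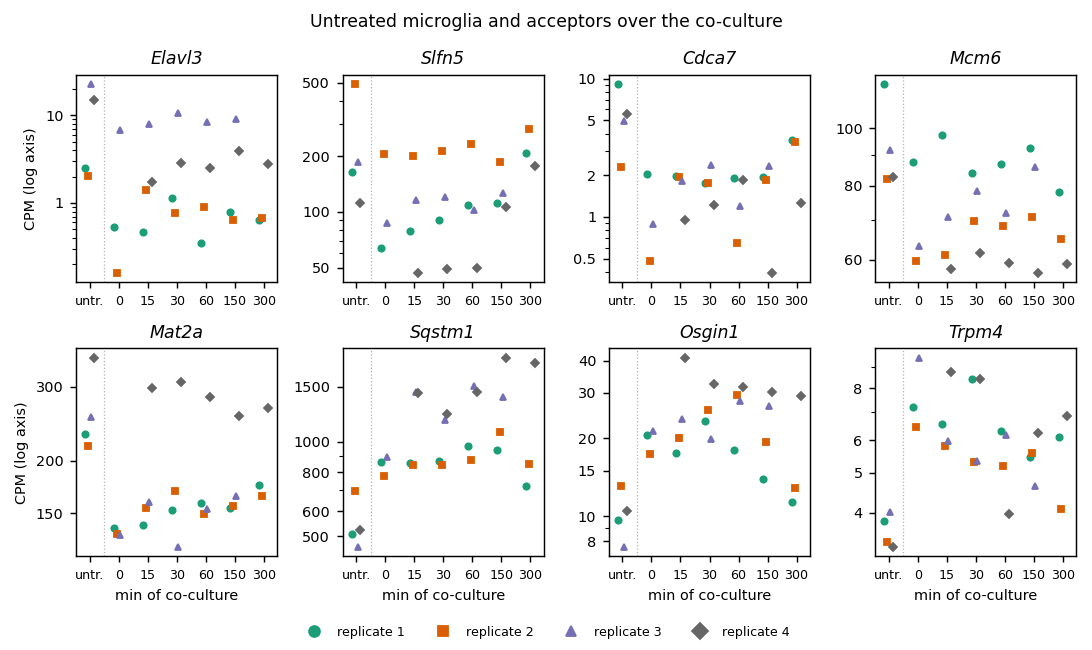
CPM (log axis) of 8 called genes in untreated microglia (untr., left of the dotted line) and in acceptors at 0 to 300 min of co-culture, one symbol per replicate. Elavl3 is at or below 10.7 CPM in every acceptor library, and Trpm4 is above the untreated range of 3.32 to 4.03 CPM in all acceptor libraries but the lowest one at 60 min, 3.98 CPM.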

How the data were processed

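RNA of primary mouse microglia was sequenced from the 3′ end of transcripts (single reads of 50 bp), and the deposited raw counts per gene of 16632 genes were used. Per the submitters' processing notes, STAR, Partek and DESeq2 were used with mm10; versions, roles and strand settings are not given in the sources used here. The authors' normalized table was not used. Libraries sharing an untreated replicate number were summed, giving 52 samples. edgeR 4.0.16 (R 4.3.3) was fitted to all 14 groups with the replicate number as a block, TMM scaling and filterByExpr (minimum count 10), which kept 13169 genes. Same-numbered acceptors and untreated cells correlated at 0.433 to 0.572, different numbers at -0.473 to -0.0166, after subtraction of group means. Deviations from a group mean cancel over its replicates, so positive values for the same number pull those for different numbers negative.

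Named genes were the 12 largest called rises and falls with all pairs in 1 direction, the 6 smallest p-values and, per list, up to 6 called members, or the first 2 tested where fewer than 2 were called. Genes named only from the fit without number 4, and Daxx, Pml, Gvin1, Gm4070, Csf2rb and Csf2rb2, were chosen after their values were seen. Some genes that met the rule are not reported here. Members and lists were chosen with earlier results of these data known. On simulated data (13033 genes) log2 changes of -2, -1, 1 and 2 were called for 92%, 78%, 72% and 100% of genes, with 7.07% of calls false. The counts were drawn from the fitted paired model itself, with changes placed only in genes above a minimum fitted count. They cannot show how many real calls are false where the data depart from that model. Alternatives were no block, only the compared groups, each number left out, DESeq2 1.42.0, median-of-ratios scaling, other filters, single untreated libraries and no ribosomal RNA. Gene positions are GENCODE M21 (GRCm38). Figures were drawn with matplotlib 3.10.9.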

Additional observations from a re-analysis of the deposited data

Results flagged for a closer look

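In 93 values of untreated cells (named genes and summed cell type markers), the highest or lowest of the 4 replicates was set apart from the other 3 by more than the 95% limit of Dixon's test for 4 values in 11. Chance gives about 1 in 20 for independent values with a normal spread. The 93 share the same 4 replicates, their CPM was not log-transformed, and many of the genes were picked for their values. The 11 can therefore not be read as an excess over chance. Number 3 stood highest for Syt4 (gap of 0.903 of the range, 16.2 CPM against at most 3.03) and for the summed oligodendrocyte markers (0.981, 725 CPM against at most 289). Number 4 stood highest for Il12b (1, with 0.26 CPM against 0) and Gfap (0.915), and lowest for Ndufa1, a respiratory chain subunit (0.841, 41.9 CPM against at least 77.4). Number 2 stood highest for Ddit3 (0.969, 316 CPM against at most 51.7) and Atf4 (0.851), genes of the integrated stress response. It also stood highest for the class I molecules H2-D1 (0.867) and H2-K1 (0.918, 3618 CPM against at most 823), for Cd4 (0.952, 19.1 CPM against at most 1.82) and for the summed T, B and NK cell markers (0.934, 19.4 CPM against at most 2.66), a list of which Cd4 is nearly the whole sum.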

How the results depend on the processing

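The 131 called genes are 0.995% of those tested, and this share depended on the replicate block and on single numbers: without the block it was 0%, and leaving out 1 replicate number gave 0% (number 3) to 2.87% (number 4). Leaving out untreated number 3 alone, an alternative chosen after seeing the data, gave 43 genes or 0.328%, with DESeq2 at 1.93%. Of the named genes called in the fit with all numbers, 22 stayed called and 21 did not when untreated number 4 alone was left out, also chosen after seeing the data. When number 4 was left out in all groups, 34 stayed called and 8 did not. Fits of the compared groups alone used only the numbers present in both groups, so number 4 was left out. For acceptors against untreated cells that fit held 24 of the 131 among its 90. All 131 kept their direction in the alternatives in which they were tested. Some alternatives, such as the fit of the compared groups alone, did not test all of them. Donors against alpha-synuclein-treated cells had 5.94% called in the fit of those groups alone, 0.0228% with DESeq2 and 0% to 0.0153% without 1 number. The difference between both changes had 0.0228% with DESeq2 and 0% to 0.015% without 1 number, and acceptors at 15 min against 0 min had 0.0177% (2 genes) in the fit of those groups alone. The median of the interferon-stimulated genes stayed between -0.72 and -1.08 over all 15 alternatives. That of the oligodendrocyte markers was -0.82 in the fit of the compared groups alone, -0.97 without the block and -2.23 without number 3, and that of the astrocyte markers was -0.72 and -2.41 in the first 2 of these. The cause of these shifts was not tested. Genes at a few counts cannot be ranked at this depth.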

Other observations

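Some called genes outside the lists share a role and were picked after their values were seen. Tpm4, Cotl1 and Lcp1, which bind actin filaments, were lower in acceptors at 0 min, with log2 fold changes of -0.50, -0.50 and -0.47. Lcp1, the plastin of blood cells, was at 1213, 1289, 1370 and 1063 CPM in untreated cells and 878, 1082 and 877 CPM in acceptors, with only acceptor number 2 inside the untreated range. H2ax, Rfc2, Polb and Dck, which serve DNA repair, replication and nucleotide supply, had -0.66, -0.43, -0.43 and -1.07. Among the higher genes, Rnf149, a membrane ubiquitin ligase, was at 497, 490, 639 and 678 CPM in untreated cells and 877, 716 and 923 CPM in acceptors. Susd4 had no count in acceptors and 1, 0, 34 and 108 counts in untreated numbers 1 to 4.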
